A study of Homo sapiens with 3 samples.

Results

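The small nucleolar RNA (snoRNA) host genes considered here were GAS5, SNHG1, SNHG3, SNHG5, SNHG6, SNHG7, SNHG8, SNHG12, SNHG15 and SNHG16. They were taken by symbol from the deposited count table, in which each of the 10 had 1 row among 57736 gene rows. RNA was sequenced from TOV21G, a human ovarian clear cell carcinoma line with a mutated ARID1A gene, a gene of the SWI/SNF chromatin remodelling machinery. The table held 1 library of cells labelled HDAC2 wild type (WT) and 2 libraries of cells transduced with a lentivirus that carried a short hairpin RNA against HDAC2, a class I histone deacetylase. Each knockdown library had a different hairpin, shRNA 1 or shRNA 2, and all libraries shared the ARID1A mutation of the line. No label states if a control virus was given to the WT cells, so depletion of HDAC2 and transduction cannot be told apart, and nothing in them says that a hairpin was used in more than 1 culture.

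A snoRNA host gene carries snoRNAs in its introns. Splicing and trimming release them as stable guides that join proteins into snoRNPs, which modify ribosomal RNA. Box C/D snoRNAs guide methylation of the ribose, and box H/ACA snoRNAs guide conversion of uridine to pseudouridine. The spliced exons of most of these noncoding hosts are left as a long noncoding RNA. Many of these RNAs begin with a run of pyrimidines, as the mRNAs of ribosomal proteins do, and several are degraded by nonsense-mediated decay when ribosomes engage them. GAS5, growth arrest-specific 5, was named for its accumulation in arrested cells.

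The libraries held between 10138479 and 11398791 counts, and 14524 genes had enough counts to be tested. HDAC2 RNA, the check of the labels, was at 105 CPM (counts scaled to library size) in WT and at 33.4 and 51.6 CPM with shRNA 1 and shRNA 2. On the log2 scale it fell by 1.31 ± 0.20 (SE), and the quasi-likelihood test of edgeR gave a Benjamini-Hochberg adjusted p of 4.82e-04. Of 11 marker genes of ovarian clear cell carcinoma 10 had enough counts to be tested, while NAPSA had 4 counts at most in any library. Enough counts can still be few: KRT7 had 20, 19 and 14 in WT, shRNA 1 and shRNA 2, and KRT19 had 7, 10 and 10. SPP1 rose 1.53-fold (adjusted p = 0.0176, edgeR), and the other 9 tested did not pass. Among markers of other cell types, CD3E, COL3A1 and LUM had 0 counts in all 3 libraries, and COL1A1 had 67, 54 and 89.

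What a member's row counts bears on every value below. In release 29 of the GENCODE annotation, 19 transcript identifiers listed in the rows of 9 members belonged to snoRNAs, and the rows of SNHG1 and SNHG12 listed 7 and 3 of them. Over all genes, 24 rows pooled snoRNA transcripts with other transcripts in this way. The row of GAS5 listed 7 identifiers that release 29 does not hold and none of an annotated snoRNA. A read from a pooled snoRNA was therefore counted for its host, and the table does not separate these reads from those of the spliced exons. RefSeq places 36 snoRNA genes inside the 10 members, 25 named as box C/D and 10 as box H/ACA, with 11 in GAS5 and 9 in SNHG1. Of the snoRNAs that GENCODE 29 places inside the members, SNORA73B of SNHG3 alone had a row of its own with counts, 12, 11 and 12 in WT, shRNA 1 and shRNA 2.

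**Figure D1:**
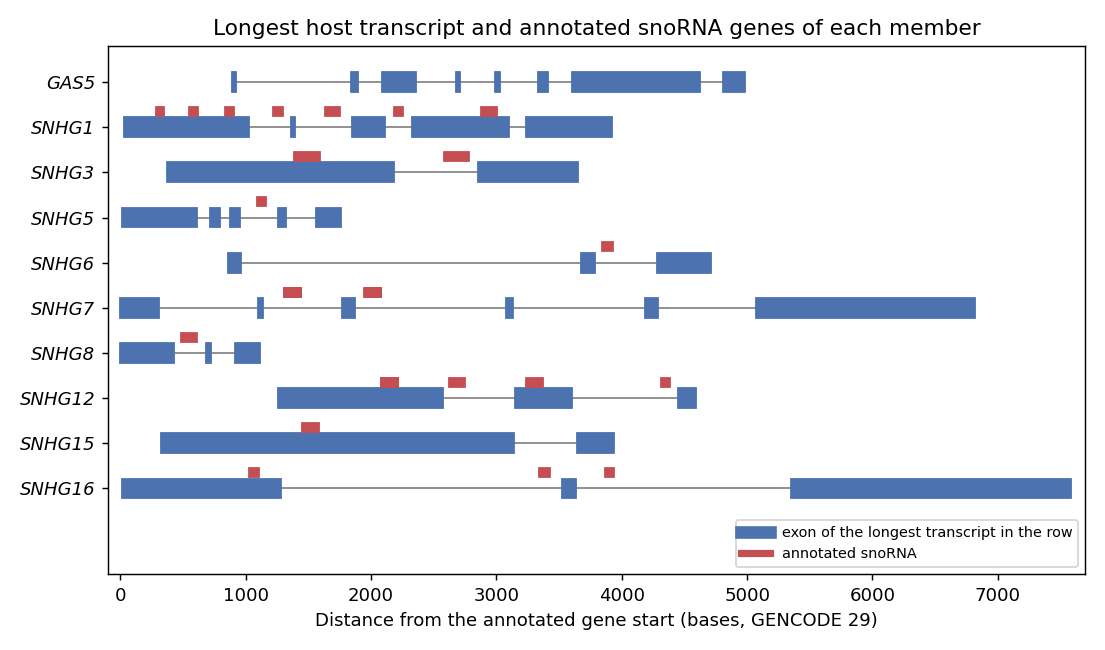
Structure of the 10 host genes. Blue boxes are exons of the longest transcript listed in each row, thin lines are introns and red boxes are snoRNA genes annotated inside the gene, against the distance in bases from the annotated gene start (GENCODE 29); SNHG1 holds 7 annotated snoRNAs and GAS5 none in that release, and in SNHG1, SNHG3, SNHG12, SNHG15 and SNHG16 some lie within an exon of the transcript drawn.

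Of the pooled snoRNAs, SNORD87 of SNHG6 and 1 entry without a snoRNA name left aside, 9 were of the C/D class, with lengths from 69 to 126 bases, and 8 of the H/ACA class, with lengths from 130 to 206 bases. A read of 75 bases is thus longer than some C/D snoRNAs. The following C/D snoRNAs are counted in the rows of SNHG1 and SNHG5, and are shown because they hold both box cores searched for. Capitals mark the box C core TGATGA and the last box D core CTGA, both searched on the snoRNA's own strand. An exact TGATGA was found in 4 of the 9 and CTGA in all 9. In GRCh38 they are SNORD25 at chr11:62855564-62855632 on the minus strand, SNORD27 at chr11:62855012-62855083 on the minus strand, SNORD30 at chr11:62853663-62853732 on the minus strand and SNORD50B at chr6:85677589-85677658 on the minus strand.
SNORD25: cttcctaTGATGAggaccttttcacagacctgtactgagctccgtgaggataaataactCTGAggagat
SNORD27: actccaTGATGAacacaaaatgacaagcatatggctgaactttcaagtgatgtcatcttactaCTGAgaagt
SNORD30: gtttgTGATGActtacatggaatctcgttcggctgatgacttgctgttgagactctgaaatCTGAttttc
SNORD50B: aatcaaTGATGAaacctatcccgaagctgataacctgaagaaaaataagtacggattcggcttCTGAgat

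The H/ACA snoRNAs below are those counted in the rows of SNHG8 and SNHG15, which each hold 1. Capitals mark the ACA that lies 3 bases from the 3′ end, found in 7 of the 8 H/ACA snoRNAs within 3 bases of that end. They are SNORA24 at chr4:118279190-118279320 on the plus strand and SNORA9 at chr7:44985378-44985510 on the minus strand (GRCh38).
SNORA24: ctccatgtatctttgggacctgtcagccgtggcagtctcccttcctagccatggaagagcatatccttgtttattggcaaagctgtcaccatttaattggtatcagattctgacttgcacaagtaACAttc
SNORA9: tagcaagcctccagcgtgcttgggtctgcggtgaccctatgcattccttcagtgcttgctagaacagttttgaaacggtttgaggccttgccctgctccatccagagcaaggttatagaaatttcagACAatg

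The starts of the host transcripts were compared next, since the pyrimidine run at the start is a known mark of these genes. RefSeq (GRCh38.p14) gave a promoter window, 250 bases before to 50 bases after the start, for 8 of the members. In the last 100 bases of that window, shown with the start site just after the first 50, capitals mark the longest run of C or T that begins within 10 bases of the start. The run was at least 6 bases long in 7 of these 8 members and in 24.7% of 35116 promoters of the table. That length was chosen after the sequences were seen. It was 12 bases in SNHG12, 8 in SNHG16 and 7 in SNHG1, against a median of 4 over all promoters. In GAS5 it was 3 bases at the RefSeq start, which lies upstream of the gene's outer bound in GENCODE 29. The longest GAS5 transcript listed in the row begins 893 bases inside that bound. Its start was not searched, so the 3 bases do not describe it. The windows are SNHG1 at chr11:62855836-62855935 (minus strand), SNHG3 at chr1:28505893-28505992 (plus strand), SNHG5 at chr6:85678684-85678783 (minus strand), SNHG7 at chr9:136728135-136728234 (minus strand), SNHG8 at chr4:118278712-118278811 (plus strand), SNHG12 at chr1:28581824-28581923 (minus strand), SNHG16 at chr17:76557714-76557813 (plus strand) and GAS5 at chr1:173868996-173869095 (minus strand).
SNHG1: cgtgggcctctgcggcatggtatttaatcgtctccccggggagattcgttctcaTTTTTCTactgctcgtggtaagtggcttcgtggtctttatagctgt
SNHG3: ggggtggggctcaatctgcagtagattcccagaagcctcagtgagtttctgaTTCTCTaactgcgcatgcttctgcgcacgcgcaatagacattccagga
SNHG5: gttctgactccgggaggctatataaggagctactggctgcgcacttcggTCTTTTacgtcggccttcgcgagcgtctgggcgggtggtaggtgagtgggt
SNHG7: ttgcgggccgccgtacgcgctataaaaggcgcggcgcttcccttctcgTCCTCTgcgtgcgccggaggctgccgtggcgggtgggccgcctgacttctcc
SNHG8: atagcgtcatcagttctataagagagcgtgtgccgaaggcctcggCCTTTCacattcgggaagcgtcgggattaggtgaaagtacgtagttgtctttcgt
SNHG12: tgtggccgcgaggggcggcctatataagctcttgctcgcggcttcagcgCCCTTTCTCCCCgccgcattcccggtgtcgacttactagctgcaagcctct
SNHG16: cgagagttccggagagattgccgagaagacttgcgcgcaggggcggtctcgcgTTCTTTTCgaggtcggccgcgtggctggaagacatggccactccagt
GAS5: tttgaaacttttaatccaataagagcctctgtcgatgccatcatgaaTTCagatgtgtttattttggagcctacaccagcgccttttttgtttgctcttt

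In the full 300-base windows, searched on both strands, GGGCGG was found in 6 of the 8 members against 45.0% of all promoters, CCAAT in 2 against 34.6%, TATAAA in 2 against 11.5% and CACGTG in 1 (SNHG7) against 7.26%. Overlaps between the motifs were not counted, and a match is only a description of the sequence.

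The levels of the hosts spanned a wide range. Divided by the joint length of all annotated exons, the WT level was highest for SNHG16, at 107 CPM per kilobase. SNHG3 and GAS5 followed at 42.1 and 40.0, then SNHG1 at 33.3, SNHG8 at 32.4 and SNHG5 at 22.8 CPM per kilobase. SNHG6 was at 11.9, SNHG15 at 9.71, SNHG12 at 2.63 and SNHG7 at 2.15 CPM per kilobase. Over the longest listed transcript instead, the order below SNHG16 changed, with WT at 85.4 CPM per kilobase for GAS5, 65.8 for SNHG3, 62.0 for SNHG5, 45.2 for SNHG1 and 44.5 for SNHG8. On the joint exon length, neighbours in this order were often closer than the libraries of 1 gene: GAS5 lay between 37.0 and 45.4 CPM per kilobase over the 3 libraries and SNHG3 between 33.1 and 42.1. SNHG1 and SNHG8 overlapped as well, from 25.6 to 33.3 and from 26.6 to 32.4, whereas SNHG16 stayed above all other members in every library. The 10 rows together held 0.116%, 0.118% and 0.125% of all counts in WT, shRNA 1 and shRNA 2, and SNHG16 alone held between 48.6% and 56.4% of that sum. SNHG16 shares 27.1% of its 75-base sequences with an annotated gene on the other strand, SNHG6 21.0% and SNHG7 18.6%. The gene opposite SNHG6, MCMDC2, had 0 counts in all 3 libraries, the one opposite SNHG7, FAM69B, had 112, 139 and 123, and the one opposite SNHG16 had no row. Use of strand in the counting is not given in these sources, so the levels of SNHG7 and SNHG16 are uncertain.

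**Figure D2:**
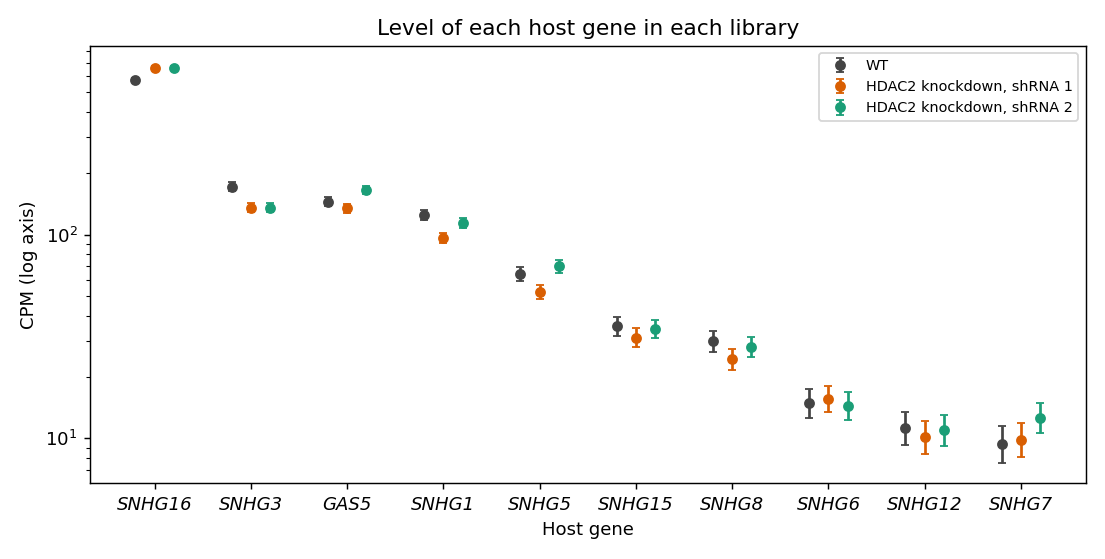
Level of each host gene in each library. CPM on a log axis for WT and the 2 hairpin libraries, with exact Poisson 95% intervals that cover counting error only; the 3 points of each gene lie close together beside the spread between genes, which runs from 9.33 CPM (SNHG7) to 574 CPM (SNHG16) in WT.

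The comparison of knockdown with WT asked whether the RNA of these hosts differed between cells transduced with a hairpin against HDAC2 and WT cells. None of the 10 members passed the quasi-likelihood test of edgeR (Benjamini-Hochberg adjusted p below 0.05), 0 upwards and 0 downwards. None had an unadjusted p below 0.05, against 3420 of the 14524 genes tested. Over all genes tested, 7.72% passed, 3.96% upwards and 3.76% downwards, and a count of 0 in 10 is near that background. The 95% intervals of the 10 changes lay between 0.617 and 1.75 of WT, and all 10 left out a 2-fold change in either direction. In 5 of them, GAS5, SNHG5, SNHG6, SNHG15 and SNHG16, the interval also left out a 1.5-fold change. These intervals rest on a spread learned mostly from other genes, and they take the variation of WT, seen in 1 library, to equal that of the knockdown cells. The median log2 change of the members was −0.08, against 0.01 over all genes tested. The median size of a change, whatever its sign, was 0.15 on the log2 scale in the members, 0.30 over all genes tested and 0.25 over the 9301 genes within the members' range of mean counts.

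GAS5 (ENSG00000234741, chromosome 1 from 173863900 to 173868882, minus strand, GRCh38) had 1446 counts in WT, 1541 with shRNA 1 and 1866 with shRNA 2. These were 145, 134 and 165 CPM, so that WT lay between the hairpin libraries. The knockdown mean was 150 ± 21.6 CPM (SD, n = 2), and the log2 change was 0.05 ± 0.18 (SE; adjusted p = 0.911, edgeR). The RNA known for accumulating in growth arrest was thus at 1.03 of its WT level, with a 95% interval from 0.795 to 1.34.

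SNHG1 (ENSG00000255717, chromosome 11 from 62851988 to 62855914, minus strand) hosts a row of C/D snoRNAs, 3 of them shown above. Its counts were 1246 in WT, 1104 with shRNA 1 and 1290 with shRNA 2, or 125, 96.3 and 114 CPM. Both knockdown libraries lay below WT, but by unequal amounts, at 77.1% and 91.3% of it. The log2 change was −0.25 ± 0.17 (SE; adjusted p = 0.418, edgeR).

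SNHG3 (ENSG00000242125, chromosome 1 from 28505980 to 28510892, plus strand) hosts the SNORA73 pair, H/ACA snoRNAs that act in the cleavage of ribosomal RNA precursors. It had 1714 counts in WT against 1551 and 1531 with shRNA 1 and shRNA 2. At 172 CPM against 135 and 135, both knockdown libraries stood at 78.7% of WT. This was the member with the lowest p, unadjusted 0.0535 and adjusted 0.220 in edgeR, at a log2 change of −0.35 ± 0.17 (SE). Its exons share 242 bases with those of RCC1, the nucleotide exchange factor of the GTPase Ran, on the same strand, and 3.51% of its 75-base sequences are shared with that gene. RCC1 fell to 0.651 of WT (log2 −0.62 ± 0.18, SE; adjusted p = 0.0363, edgeR), a call that did not pass with a GC trend removed (adjusted p = 0.0650) or in DESeq2's Wald test (0.253). How reads were divided between the 2 genes was not tested.

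SNHG5 (ENSG00000203875, chromosome 6 from 85660950 to 85678748, minus strand), host of the SNORD50 pair, had 638 counts in WT, 602 with shRNA 1 and 789 with shRNA 2. At 64.0, 52.5 and 69.8 CPM, WT again lay between the hairpin libraries. The mean of the knockdown libraries was 61.1 ± 12.2 CPM (SD, n = 2), and the log2 change was −0.07 ± 0.19 (SE).

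SNHG16 (ENSG00000163597, chromosome 17 from 76557766 to 76565348, plus strand), host of the SNORD1 family, was the member with most counts, 5726 in WT and 7558 and 7447 with shRNA 1 and shRNA 2. The knockdown libraries lay at 659 and 659 CPM, both above the 574 CPM of WT. The log2 change of 0.20 ± 0.16 (SE) did not pass (adjusted p = 0.478, edgeR). In SNHG16 and SNHG3 the hairpin libraries were closest to each other, on opposite sides of WT for the 2 genes.

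The remaining hosts had fewer counts and wider intervals. SNHG7 (ENSG00000233016, chromosome 9 from 136721366 to 136728184, minus strand) had 93, 113 and 143 counts, or 9.33, 9.86 and 12.6 CPM, and both knockdown libraries lay above WT. Its log2 change of 0.27 ± 0.26 (SE) did not pass (adjusted p = 0.575, edgeR), and it was 0.07 without shRNA 2 and 0.43 without shRNA 1. SNHG8 (ENSG00000269893, chromosome 4 from 118278709 to 118279823, plus strand) was at 29.9 CPM in WT and at 24.5 and 28.1 CPM with the hairpins, both below WT.
SNHG15 (ENSG00000232956, chromosome 7 from 44983023 to 44986961, minus strand) and SNHG12 (ENSG00000197989, chromosome 1 from 28578538 to 28583132, minus strand) were also below WT with both hairpins, by little. SNHG15 was at 35.4, 31.2 and 34.3 CPM in WT, shRNA 1 and shRNA 2. SNHG12, which hosts SNORA16A, SNORA44 and SNORA61, was at 11.2, 10.1 and 11.0 CPM. SNHG6 (ENSG00000245910, chromosome 8), host of SNORD87, was at 14.8, 15.6 and 14.4 CPM, with WT between the hairpins. The log2 changes of SNHG8, SNHG15, SNHG12 and SNHG6 were −0.18, −0.11, −0.09 and 0.02. With a GC trend removed from each library the direction turned for SNHG12 (0.11), SNHG6 (−0.16) and GAS5 (−0.13), and SNHG7 was at 0.59. None of them passed. For SNHG12 the removal used 56.6% GC, that of its longest annotated transcript, while the longest transcript listed in its row has 50.5%. The direction of SNHG12 at the lower value was not tested.

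**Figure D3:**
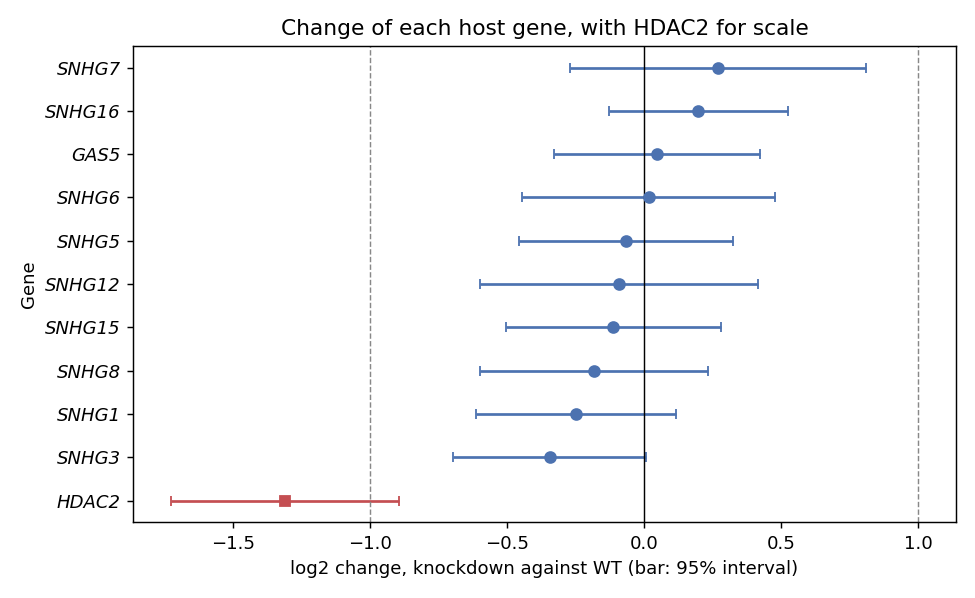
Log2 change of each host gene in knockdown cells against WT. Points are estimates of edgeR's quasi-likelihood fit and bars their 95% intervals, with HDAC2 for scale and dashed lines at a 2-fold change; every interval of the 10 hosts lies inside the dashed lines, while HDAC2 is at −1.31.

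Set against the WT library, both hairpin libraries were above it for 2 members (SNHG7 and SNHG16), below it for 5 (SNHG1, SNHG3, SNHG8, SNHG12 and SNHG15) and on different sides for 3 (GAS5, SNHG5 and SNHG6). Over all genes tested, both were above WT in 39.9% and below it in 39.3%, so 79.2% lay on 1 side, against 7 of 10 members. These shares carry no test, and the comparisons of both hairpins use the same WT library.

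The hairpin libraries differed by more than counting error in 3 of the 10 members, against 33.6% of all genes tested and 42.1% of those within the members' range of mean counts. In 8 of the 10, all but SNHG6 and SNHG16, the level was higher with shRNA 2 than with shRNA 1, against 50.2% of all genes tested. The share was 56.2% of long noncoding RNA genes tested. In the lists described below it ran from 40.0% (nonsense-mediated decay) to 68.8% (genes whose proteins bind or assemble snoRNAs). The ratio of shRNA 2 to shRNA 1 was 1.33 for SNHG5, with an exact counting interval from 1.19 to 1.48, 1.23 for GAS5 (1.15 to 1.31) and 1.18 for SNHG1 (1.09 to 1.28). For the other 7 the interval included a ratio of 1, as for SNHG16 at 0.999 (0.967 to 1.03). These intervals cover counting error only. With 1 library a hairpin there is no test, and culture, library and hairpin cannot be told apart. HDAC2 itself was lower with shRNA 1 (33.4 CPM) than with shRNA 2 (51.6 CPM). The median log2 difference of the members from WT was −0.16 with shRNA 1 and −0.038 with shRNA 2, against 0.0097 and −0.0039 over all genes tested. The part of the remaining HDAC2 level in the difference between hairpins was not tested.

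**Figure D4:**
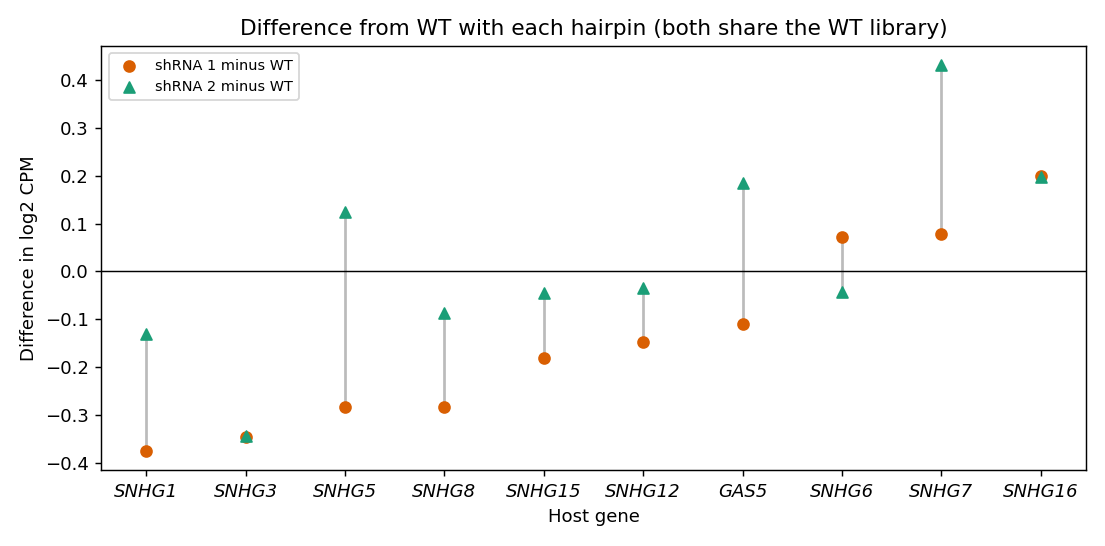
Difference in log2 CPM from WT with each hairpin, for the 10 host genes. Circles are shRNA 1, triangles shRNA 2 and grey lines join the pair of a gene; both use the same WT library, and 8 of the 10 triangles lie above their circle, with SNHG16 and SNHG3 as the pairs that nearly coincide.

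Other genes of the snoRNA pathway were counted in lists. Of 19 other noncoding snoRNA hosts 18 were found in the table and 15 tested, and 1 rose, 2 fell and 12 failed the test, 20.0% called against 7.72% of all genes; their median log2 change was −0.15. SNHG25, whose row carries the name of its snoRNA, SNORA76, in the table, had 122 counts in WT and 45 and 60 with shRNA 1 and shRNA 2, and fell to 0.378 of WT (log2 −1.41 ± 0.29, SE; adjusted p = 0.00539, edgeR). SNHG19, host of SNORD60, had 191, 127 and 100 counts and fell to 0.520 of WT (adjusted p = 0.0147, edgeR). For both genes DESeq2's Wald test gave no adjusted p, so it made no call on them. SNHG14, a long transcript antisense to UBE3A in the Prader-Willi region, rose 1.56-fold, from 453 counts to 809 and 806 (adjusted p = 0.0303, edgeR). Its reads cannot be told apart from those of overlapping genes if strand was not used, and its call was lost with the GC trend removed (adjusted p = 0.0549) and in DESeq2's Wald test (0.159). ZFAS1, at 115 CPM in WT and 139 and 171 with the hairpins, and DANCR, at 245, 198 and 202 CPM, did not pass.

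Of 46 protein-coding snoRNA hosts, many of them genes of ribosomal proteins, 3 rose, 1 fell and 42 failed the test, 8.70% called, near the 7.72% of all genes, and the median log2 change was −0.14. EIF4A2, an RNA helicase of translation initiation, rose 1.57-fold, TAF1D, a subunit of the RNA polymerase I factor SL1, 1.59-fold and RNF149, a ubiquitin ligase, 1.58-fold. RPS2, a ribosomal protein, fell to 0.701 of WT (adjusted p = 0.0345, edgeR). None of these 4 calls passed with a GC trend removed, where the adjusted p lay between 0.0621 and 0.324. How far pseudogene copies affect the counts of RPS2 and the other ribosomal protein genes was not tested.

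Among 16 tested genes whose proteins bind or assemble snoRNAs, the RNA of 3 fell, 0 rose and 13 were short of the threshold, 18.8% called against 7.72% of all genes. The median log2 change was −0.28. FBL, the methyltransferase fibrillarin of C/D snoRNPs, was at 180 CPM in WT and at 103 and 93.0 CPM with shRNA 1 and shRNA 2, a fall to 0.545 of WT (log2 −0.88 ± 0.17, SE; adjusted p = 0.00313, edgeR). PIH1D1 and RUVBL2, members of the R2TP assembly machinery, fell to 0.555 and 0.635 of WT. Both knockdown libraries lay below WT for all 3. FBL and PIH1D1 passed also with the GC trend removed, and RUVBL2 did not (adjusted p = 0.169, and 0.176 in DESeq2's Wald test). The other C/D core genes did not pass, with log2 changes of −0.27 for NOP56, −0.01 for NOP58 and −0.45 for SNU13, nor did the H/ACA core genes DKC1 (−0.30), NHP2 (−0.35), NOP10 (−0.31) and GAR1 (0.17). NOP56 and DKC1 are also in the list of protein-coding hosts.

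Of 15 genes of nonsense-mediated decay and the exon junction complex, 0 rose, 1 fell and 14 were short of the threshold, 6.67% called against 7.72% of all genes. The median log2 change was −0.08. EIF4A3, the helicase that anchors the exon junction complex on RNA, fell to 0.667 of WT (log2 −0.58 ± 0.17, SE; adjusted p = 0.0361, edgeR; 0.108 in DESeq2's Wald test). UPF1, the central helicase of the decay pathway, was at 62.2, 53.9 and 53.3 CPM in WT, shRNA 1 and shRNA 2, and SMG1, its kinase, at 152, 209 and 209 CPM, and neither passed.

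**Figure D5:**
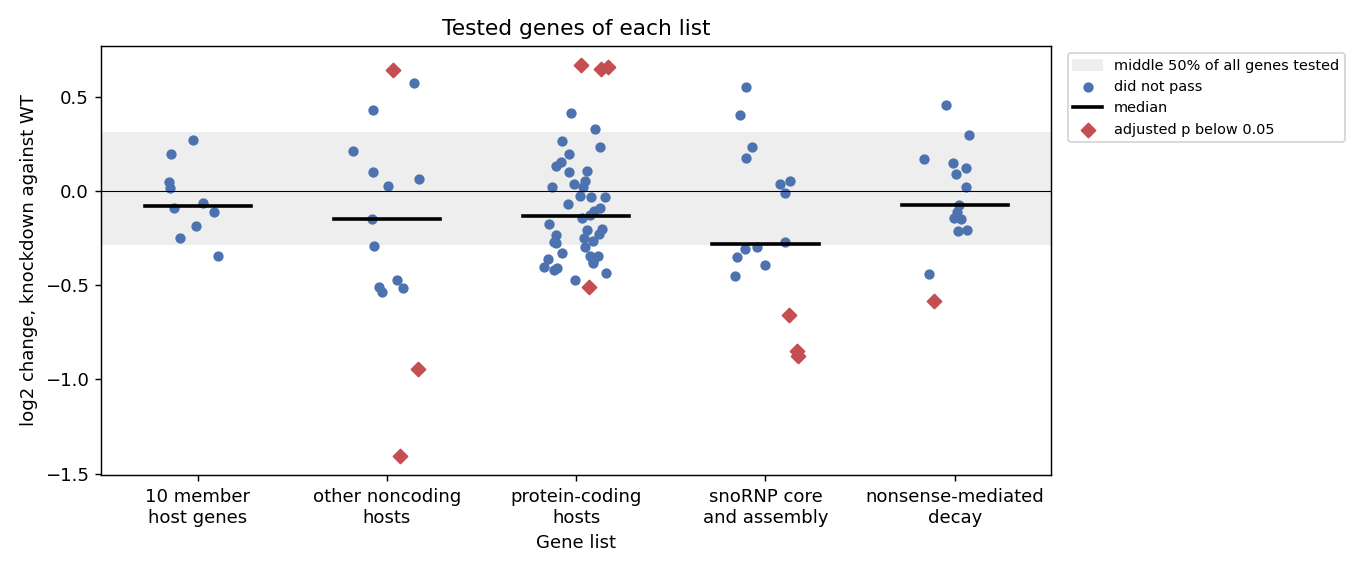
Log2 change of every tested gene of the 5 lists. Points are genes, red diamonds those past an adjusted p of 0.05, black bars list medians, and the grey band the middle 50% of all genes tested; 9 of the 10 hosts lie within that band, and none passed.

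The genes next to the members were looked at by position, after the data were examined. ZBTB37, a zinc finger gene that starts 800 bases from GAS5 on the opposite strand, rose 1.84-fold, from 184 counts in WT to 424 and 349 (adjusted p = 0.0151, edgeR; 0.101 with the GC trend removed, 0.135 in DESeq2's Wald test). GAS5 itself was at 1.03 of WT in the same fit, and the difference between the 2 genes was not tested. SLC3A2, an amino acid transporter subunit that starts 188 bases from the outer bound of SNHG1 on the opposite strand, was at 48.9, 53.2 and 48.6 CPM and did not pass. TRNAU1AP, whose exons overlap those of SNHG12 by 8 bases on the opposite strand, was at 64.9 CPM in WT and 45.7 and 45.8 CPM with the hairpins, which did not pass (adjusted p = 0.0754, edgeR).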

How the data were processed

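Libraries of total TOV21G RNA (ScriptSeq Gold kit) were read at 75 bp, per the labels' protocols. The deposited values are estimated counts for each Ensembl gene, stored whole, so rounding changed 0 of them. RSEM 1.2.3, edgeR and hg19 are named in the submitters' processing notes, without the step each did. Of 57736 gene IDs, 51959 were named by the reference table, and coordinates come from GENCODE 29 or RefSeq (GRCh38), not from hg19.

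Knockdown (n = 2) was compared with WT (n = 1) on the whole table by edgeR's quasi-likelihood test (edgeR 4.0.16, R 4.3.3), with TMM scaling, filterByExpr defaults, Benjamini-Hochberg adjustment and a threshold of 0.05. The fit had 1 residual degree of freedom and a prior of 18.9, so the variance behind the p-values comes mostly from other genes and otherwise from the 2 hairpin libraries, which the labels do not call separate cultures. CPM used TMM-scaled totals, and single-hairpin log2 differences a prior count of 2. Total counts were 10138479, 11398791 and 11225492. The test was also run on simulated counts with known changes, drawn for all 3 libraries from the dispersion that the fit had estimated. Those counts hold no variation particular to the WT library, so the run cannot check the limit set by 1 WT library. The members and lists were chosen with earlier results of these data known. All members were named, and of each list the genes that passed, up to 3 in each direction; HDAC2 was the label check, and RCC1, SLC3A2, ZBTB37, TRNAU1AP and the list genes named without a call were chosen after their values were seen. Alternatives were other scalings, filters and tests (DESeq2 1.42.0 among them), a lowess trend of each library with transcript GC content removed (span 0.3), hosted snoRNA rows summed with their host, and each hairpin library left out.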

Additional observations from a re-analysis of the deposited data

How the results depend on the processing

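None of the 10 host genes passed under any of the 9 alternatives tested, and the lowest adjusted p of any host was 0.176 (SNHG3 in edgeR with the filter set at a mean count of 50). DESeq2's Wald test gave no adjusted p for 3 of them, SNHG6, SNHG7 and SNHG12. At an unadjusted p below 0.05 there were 3 hosts with the GC trend removed, 1 with no filter on low counts, 1 with the filter at 50 and 0 in the others. Among all genes tested there were 2569 of 14524 with the GC trend removed, 2486 of 23698 with no filter and 2911 of 11206 with the filter at 50. Of 90 host values under these alternatives 87 kept their direction, and 3 turned, all with the GC trend removed: GAS5 to −0.13, SNHG6 to −0.16 and SNHG12 to 0.11 on the log2 scale. The turn of SNHG12 rests on the 56.6% GC of a transcript that its row does not list. SNHG7, whose longest transcript has 65.9% GC, moved to 0.59 there. The number of genes passing over the whole table was 1121, and became 0 with no filter on low counts (2486 at an unadjusted p below 0.05), 306 by DESeq2's Wald test and 685 with the GC trend removed (250 up and 435 down, against 575 and 546). The median log2 change of the hosts was −0.18 without shRNA 2 and −0.038 without shRNA 1, each a comparison of 1 library with 1 and so without a test. No scaling moved the median of all genes by over 0.1. No paired analysis was possible because there was only 1 WT library, so the groups share fewer than 2 replicate numbers. The lone WT library and counts of about 100 for SNHG7 and SNHG12 limit the precision.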
